A study of Mus musculus with 6 samples.

Results

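The genes described are those of the transient receptor potential (TRP), acid-sensing (ASIC) and hyperpolarization-activated (HCN) cation channels, chosen by name from the deposited table. The list holds 33 genes out of 26728 entries: 6 TRPC, 8 TRPM, 6 TRPV, 1 TRPA, 3 TRPML, 2 TRPP, 4 ASIC and 3 HCN genes. All 33 were found in 1 row each, with any older Accn symbol read as its current Asic symbol. The 6 RNA-seq libraries were 3 of carotid body and 3 of adrenal medulla, all from untreated adult C57/BL6 mice with no allele named in the labels. The carotid body senses oxygen, carbon dioxide and acid in arterial blood, whereas chromaffin cells of the adrenal medulla release catecholamines into it. Each sample, according to the design note, pooled 18 carotid bodies or 10 adrenal medullas of 10 mice, so that each library is 1 pool of whole tissue and n counts pools. Depth was 13266225 to 16445925 reads per library, and 1 read on an mRNA of 2 kb was worth 0.0304 to 0.0377 RPKM (reads per kilobase of mRNA, scaled to library depth).

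TRP channels are tetrameric cation channels, many of which admit calcium, and their gates answer to different inputs. TRPC channels open downstream of receptors that act through Gq and phospholipase C, TRPV channels answer to heat, osmotic or mechanical stimuli or carry calcium through epithelia, and TRPM channels include sensors of intracellular calcium, oxidative stress and cold. TRPML channels and polycystins lie mostly on lysosomes, the endoplasmic reticulum and primary cilia. ASICs are sodium channels opened by extracellular protons, and in rat carotid body they have been described in the glomus cells that sense acid and low oxygen. HCN channels open on hyperpolarization, are modulated by cyclic AMP and set pacemaker activity in heart and neurons.

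Both tissues were checked against marker lists. The 11 genes of chromaffin or glomus cells summed to 2369–3263 RPKM in carotid body and 13212–25060 RPKM in adrenal medulla. Within this list Pnmt had 16.8, 1.95 and 1.81 RPKM in carotid body and 2708, 4225 and 6042 RPKM in adrenal medulla. Ddc went the other way, with 777, 870 and 917 RPKM in carotid body and 256, 282 and 210 RPKM in adrenal medulla. The 5 glomus genes summed to 1101–2019 RPKM in carotid body and 210–470 RPKM in adrenal medulla. Kcnk3 of that list was lower in carotid body, at 35.9, 48.1 and 46.2 RPKM against 101, 114 and 232 RPKM. The libraries also held other cells: 12 adrenal cortex genes summed to 105–219 RPKM in carotid body and 14015–18174 RPKM in adrenal medulla. Summed levels in carotid body and in adrenal medulla were 2562–3094 and 116–117 RPKM for 12 smooth muscle and pericyte genes, 411–493 and 138–196 RPKM for 10 endothelial genes, and 2430–3116 and 70.9–183 RPKM for 8 fibroblast genes. They were 396–565 and 50.7–75.0 RPKM for 10 glial genes and 175–235 and 2.12–5.21 RPKM for 7 mast cell genes, of which Ms4a2 was at 0 in adrenal medulla. Macrophage genes, 7 of 8 of them in the table, summed to 491–613 RPKM in carotid body and 207–515 RPKM in adrenal medulla. The 13 of 14 ganglion neuron genes in the table summed to 186–237 RPKM in carotid body and 124–286 RPKM in adrenal medulla. Scn10a, a sodium channel of nociceptors, was at 0 in all carotid body libraries and at most 0.00948 RPKM in adrenal medulla. Single genes of this list went both ways. Avil had 1.82–2.45 RPKM in carotid body and 0.0982–0.561 RPKM in adrenal medulla, and Rbfox3 had 0.152–0.283 and 1.62–3.81 RPKM. Adipocyte genes, 6 in number, summed to 391, 3636 and 880 RPKM in carotid body and 713, 229 and 2222 RPKM in adrenal medulla. Carotid body pool 2 and adrenal medulla pool 3 thus stood apart, the first with 221 RPKM of the brown fat gene Ucp1 (at most 2.48 RPKM elsewhere), and results were also computed without both. In bulk tissue, fewer cells of a type and less RNA per cell cannot be told apart.

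Of the 33 channel genes, 12 reached 1 RPKM in at least 3 libraries and were tested with limma on log2(RPKM + 1), over all 13357 entries that did so. Another 11 lay under that filter, and 10 were absent from both tissues by the limit used here, under 0.1 RPKM in each of the 6 libraries. At an adjusted p under 0.05 (Benjamini-Hochberg), Trpv4, Trpv6 and Trpc5 were higher in carotid body and Asic4 and Asic2 lower. These 5 of 12 stand beside 21.9% of all tested genes called in either direction. By direction they are 3 of 12 higher in carotid body, beside 14.2% of tested genes, and 2 of 12 lower, beside 7.73%. Trpv4 and Trpv6 passed the filter only through carotid body and Asic4 only through adrenal medulla, so these genes had to differ and the counts carry no weight as support. Over the 12, the median log2 difference, carotid body minus adrenal medulla, was 0.10, against 0.02 over all tested genes. The carotid body libraries lay wholly above the adrenal medulla libraries for 4 of the 12 (22.3% of tested genes) and wholly below them for 2 (14.7%), and for 6 the tissues overlapped. Summed over all 33 genes, the channels reached 75.3, 73.8 and 83.4 RPKM in carotid body and 70.3, 85.5 and 81.7 RPKM in adrenal medulla, so the total overlapped while the make-up differed.

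**Figure D1:**
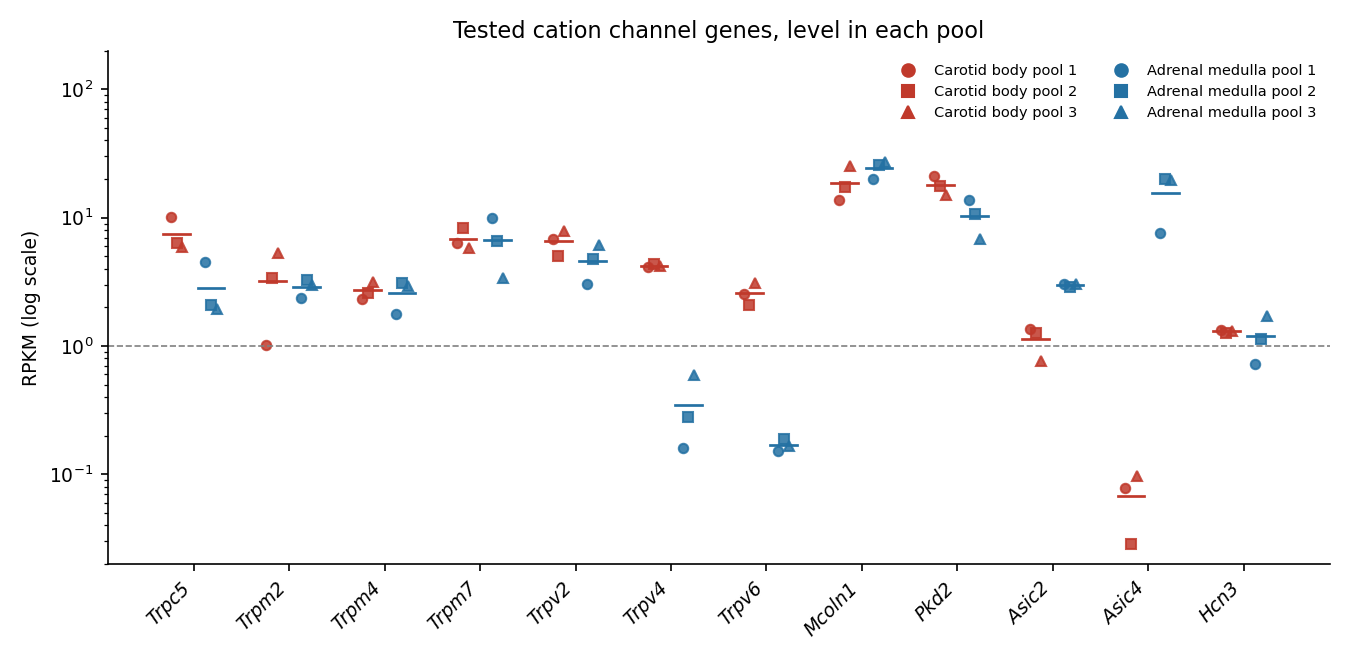
Level of the 12 tested channel genes in RPKM on a log axis, 1 point per pool and a short line at the mean, carotid body to the left of adrenal medulla for each gene; the dashed line marks 1 RPKM. Trpv4 and Trpv6 lie above the line in carotid body alone, Asic4 lies above it in adrenal medulla alone, and Mcoln1 and Pkd2 have the highest mean RPKM in carotid body.

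Of the 3 TRPV genes tested, Trpv4 and Trpv6 were higher in carotid body and Trpv2 was not called. Trpv4 encodes a channel opened by osmotic swelling, stretch and warmth that is well known from endothelium, epithelia and smooth muscle. It stood at 4.14, 4.34 and 4.19 RPKM in carotid body and 0.160, 0.280 and 0.599 RPKM in adrenal medulla. All carotid body pools were close to each other, and each lay above every adrenal medulla pool. Trpv4 averaged 4.22 ± 0.105 RPKM in carotid body and 0.347 ± 0.227 RPKM in adrenal medulla (SD, n = 3 each), a 12.2-fold ratio of means. With 1 library left out, this ratio ran from 9.60-fold without adrenal medulla pool 1 to 19.2-fold without adrenal medulla pool 3. Its log2(RPKM + 1) difference was 1.97 (SE 0.18, limma adjusted p = 1.22e-04). That scale understates low genes: on the 594 reads recovered in carotid body and 52 in adrenal medulla, limma's voom gave a log2 difference of 3.73.

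Trpv6 encodes a calcium-selective channel best known for calcium uptake in intestine and placenta. It reached 2.55, 2.10 and 3.12 RPKM in carotid body and 0.152, 0.190 and 0.165 RPKM in adrenal medulla. The adrenal medulla pools sat together near the level of a few reads, and all carotid body pools lay above them. The means were 2.59 ± 0.511 RPKM in carotid body and 0.169 ± 0.0196 RPKM in adrenal medulla (SD, n = 3 each), a 15.3-fold ratio. Its log2(RPKM + 1) difference was 1.61 (SE 0.16, limma adjusted p = 1.97e-04), and voom on 334 reads in carotid body and 22 in adrenal medulla gave 3.84. Trpv5, the closely related channel of renal calcium reabsorption whose gene neighbours Trpv6 on chromosome 6, had 1 read in carotid body and 0 in adrenal medulla.

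The higher levels of Trpv4 and Trpv6 in carotid body went with higher summed glomus, smooth muscle, endothelial, fibroblast, glial and mast cell markers there. Not every gene of these lists followed its sum: Kcnk3 was lower in carotid body, and Emcn, Tek, Kdr, Des and Erbb3 overlapped between tissues. The part of these cells in either difference was not tested. Trpv2, a channel expressed in macrophages and neurons, had 6.81, 5.01 and 7.91 RPKM in carotid body and 3.03, 4.74 and 6.12 RPKM in adrenal medulla, so the tissues overlapped. Its log2(RPKM + 1) difference of 0.45 did not pass the test (95% interval -0.18 to 1.08, limma adjusted p = 0.314). Trpv1, the capsaicin and heat receptor of sensory neurons, had 0 reads in carotid body, which allows up to 0.0275 RPKM (3 reads over the 3 libraries; counting error only), and 1 read in adrenal medulla. Trpv3, a warmth-gated channel of keratinocytes, had 1 read in each tissue.

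The promoters of both called TRPV genes are shown because both genes were higher in carotid body while their start regions differ in make-up. Each line gives the 250 bases before the annotated start in RefSeq GRCm38.p6, 5′ to 3′, with capitals marking CG dinucleotides; the deposited table itself was made on mm9, and no coordinates were converted.
Trpv4 (chr5:114658422-114658671, minus strand): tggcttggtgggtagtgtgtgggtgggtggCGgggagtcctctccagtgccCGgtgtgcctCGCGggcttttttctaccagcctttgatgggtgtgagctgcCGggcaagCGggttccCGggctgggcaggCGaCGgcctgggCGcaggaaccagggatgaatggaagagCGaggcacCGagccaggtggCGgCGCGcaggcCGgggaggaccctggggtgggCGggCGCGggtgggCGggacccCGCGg
Trpv6 (chr6:41636406-41636655, minus strand): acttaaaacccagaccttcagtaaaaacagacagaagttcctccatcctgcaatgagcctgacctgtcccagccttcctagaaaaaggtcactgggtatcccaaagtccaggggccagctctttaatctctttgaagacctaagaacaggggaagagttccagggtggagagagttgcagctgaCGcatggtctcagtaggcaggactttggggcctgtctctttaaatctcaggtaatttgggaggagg
Trpv4 had a GC content of 72.0% and 22 CG dinucleotides, more than 85.2% of the 32851 promoters of the same length. Trpv6 had 49.6% GC and 1 CG, more than 7.87% of promoters, beside medians of 52.4% and 6 over all promoters.

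Among the TRPC genes, which code for receptor-operated channels, Trpc5 led in both tissues. TRPC5 is a calcium-permeable channel that opens after Gq-coupled receptor activation and is best known from brain. Trpc5 reached 10.2, 6.31 and 5.96 RPKM in carotid body and 4.49, 2.11 and 1.95 RPKM in adrenal medulla. Every carotid body pool lay above every adrenal medulla pool, with pool 1 the highest in both tissues. It averaged 7.48 ± 2.34 RPKM in carotid body and 2.85 ± 1.43 RPKM in adrenal medulla (SD, n = 3 each), a 2.63-fold ratio resting on 1348 reads in carotid body and 509 in adrenal medulla. Its log2(RPKM + 1) difference was 1.17 (SE 0.31, limma adjusted p = 0.0269). When single libraries were left out, the call was lost for pools 1 and 2 of carotid body (adjusted p = 0.0992 and 0.0502) and for pools 2 and 3 of adrenal medulla (0.102 and 0.0511). It was also lost with no filter on low values (0.0521), and with carotid body pool 2 and adrenal medulla pool 3 both left out (0.0684).
Trpc5 (chrX:144688181-144688430, minus strand, GRCm38.p6, the 250 bases before the start, CG in capitals): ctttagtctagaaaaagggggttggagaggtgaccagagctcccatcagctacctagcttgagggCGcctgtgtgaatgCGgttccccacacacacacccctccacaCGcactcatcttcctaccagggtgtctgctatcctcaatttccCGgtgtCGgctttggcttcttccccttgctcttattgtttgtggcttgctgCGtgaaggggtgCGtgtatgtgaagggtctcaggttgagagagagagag
This window had 54.4% GC and 7 CG dinucleotides, more than 53.7% of promoters, and so lay between those of Trpv4 and Trpv6.

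The other 5 TRPC genes were under the filter, and their reads were compared with voom over the 17250 entries with at least 10 reads, of which 20.5% were called. Of the 21 channel genes under the filter, 12 had that many reads, and Trpm3, higher in carotid body, and Trpa1, lower, were called. Trpc6, a diacylglycerol-gated channel of smooth muscle and podocytes, had 0.677, 1.41 and 0.788 RPKM in carotid body and 0.480, 0.516 and 0.187 RPKM in adrenal medulla. The tissues did not overlap, but the log2 difference on reads of 1.33 did not pass the test (voom, adjusted p = 0.1005). Trpc1, a subunit that joins other TRPC channels, had 0.663, 0.700 and 1.15 RPKM in carotid body and 0.494, 0.442 and 0.303 RPKM in adrenal medulla, without overlap and with a log2 difference on reads of 1.01 (adjusted p = 0.129).

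Trpc7, a diacylglycerol-gated relative of Trpc6, had its higher values in adrenal medulla. It had 0.124, 0.181 and 0.115 RPKM in carotid body and 0.223, 0.776 and 0.401 RPKM in adrenal medulla, without overlap, on 20 reads in carotid body and 69 in adrenal medulla. The log2 difference on reads was -1.53 (voom, adjusted p = 0.106), and it was called with the pool number as a block (adjusted p = 0.0467) and without adrenal medulla pool 1 (0.0480). Trpc4, which pairs with Trpc5, had 18 reads in carotid body and 40 in adrenal medulla, without overlap, and a log2 difference on reads of -1.09 (adjusted p = 0.186). Trpc2, a pheromone transduction channel of the rodent vomeronasal organ, overlapped between tissues with 40 reads in carotid body and 45 in adrenal medulla. Its exons are shared on the same strand with Xndc1 and Xntrpc in the GRCm38 annotation, so its reads cannot be assigned to it with certainty.

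**Figure D2:**
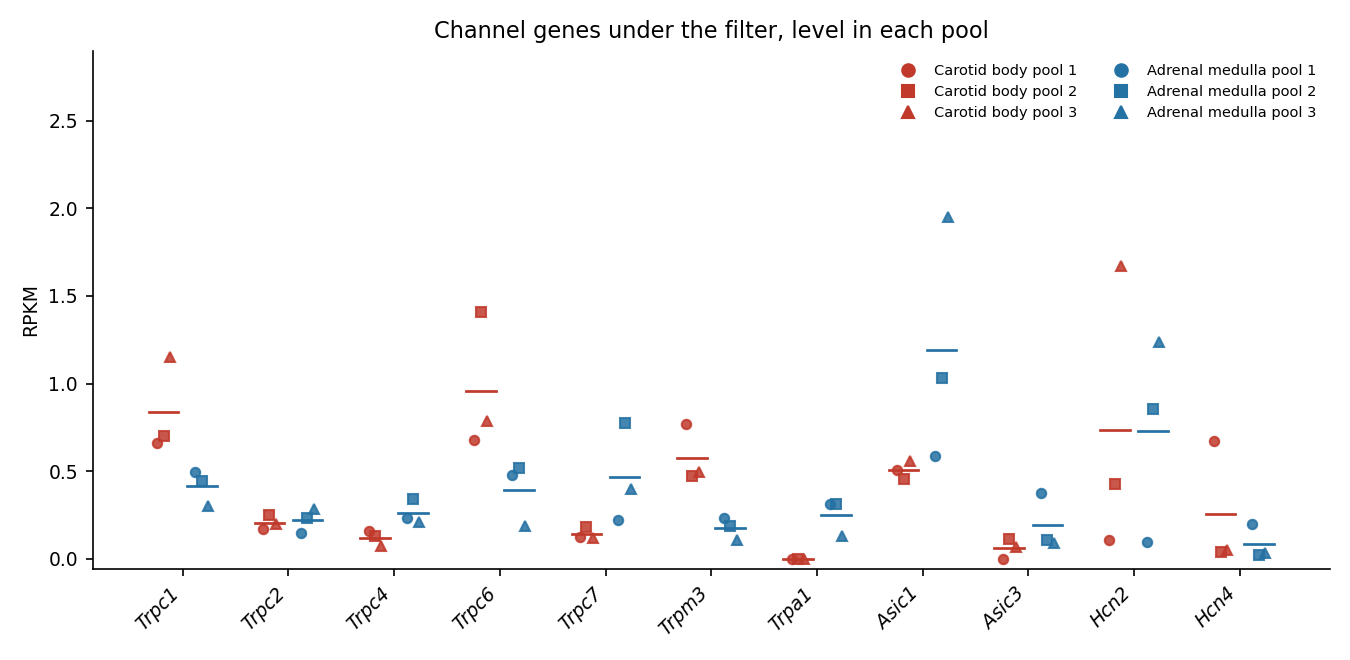
Level in RPKM, on a linear axis, of the 11 channel genes under the filter that were not absent, 1 point per pool and a short line at the mean, carotid body to the left of adrenal medulla for each gene. Trpm3, Trpc1 and Trpc6 lie higher in carotid body, Trpc4, Trpc7, Trpa1 and Asic1 lie higher in adrenal medulla, and Hcn2 and Hcn4 spread widely within each tissue.

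The TRPM genes were present at similar summed levels, 10.6–14.8 RPKM in carotid body and 9.42–14.4 RPKM in adrenal medulla. Trpm7, a magnesium-permeable channel fused to a kinase and found in most cells, led the family with 6.34, 8.24 and 5.82 RPKM in carotid body and 10.0, 6.64 and 3.38 RPKM in adrenal medulla. The adrenal medulla pools spanned the carotid body pools on both sides, and the log2(RPKM + 1) difference was 0.11 (95% interval -0.67 to 0.88, limma adjusted p = 0.878). Trpm4, a monovalent channel opened by intracellular calcium, averaged 2.71 ± 0.428 RPKM in carotid body and 2.60 ± 0.728 RPKM in adrenal medulla (SD, n = 3 each). Its difference was 0.06 (95% interval -0.45 to 0.56, limma adjusted p = 0.904). The intervals of both genes leave room for a change in either direction.

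Trpm2, which opens on ADP-ribose made under oxidative stress and is prominent in leukocytes, spread widely within carotid body. It stood at 1.02, 3.36 and 5.30 RPKM in carotid body and 2.36, 3.28 and 2.99 RPKM in adrenal medulla. The carotid body pools lay both below and above all adrenal medulla pools, and the log2(RPKM + 1) difference was -0.02 (95% interval -0.89 to 0.85, limma adjusted p = 0.986). Small RNA genes share its exons on the same strand in GRCm38. Trpm3, a channel opened by heat and pregnenolone sulphate in sensory neurons, reached 0.767, 0.470 and 0.495 RPKM in carotid body and 0.232, 0.187 and 0.108 RPKM in adrenal medulla. The tissues did not overlap, and on 169 reads in carotid body and 51 in adrenal medulla the log2 difference was 1.74 (SE 0.43, voom, adjusted p = 0.0194). Leaving out pool 1 of carotid body (0.0648) or pool 2 of adrenal medulla (0.0557) ended that call. C330002G04Rik and Gm27151 overlap Trpm3 exons on the opposite strand, and without stated strand their reads cannot be told apart.

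Mcoln1 and Pkd2, the channels of internal membranes and cilia, had the highest mean RPKM of the 33 genes in carotid body. In reads there, Pkd2 had 4073, Trpm7 2085 and Mcoln1 1680, so the rank of Mcoln1 rests on the division by mRNA length. Mcoln1, the lysosomal calcium release channel TRPML1, had 13.8, 17.2 and 25.4 RPKM in carotid body and 19.9, 25.8 and 27.4 RPKM in adrenal medulla. The tissues overlapped, and the log2(RPKM + 1) difference of -0.39 did not pass the test (SE 0.27, limma adjusted p = 0.380). Its mean ranked above 70.9% of tested genes in carotid body and 75.9% in adrenal medulla. Mcoln2, a lymphoid relative, had 3 reads in carotid body and 1 in adrenal medulla, and Mcoln3 had 0 in both.

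Pkd2 encodes polycystin-2, mutated in polycystic kidney disease. It had 21.3, 17.8 and 15.1 RPKM in carotid body and 13.6, 10.6 and 6.77 RPKM in adrenal medulla. Every carotid body pool lay above every adrenal medulla pool, and in both tissues pool 1 was the highest and pool 3 the lowest. The means were 18.1 ± 3.10 RPKM in carotid body and 10.3 ± 3.44 RPKM in adrenal medulla (SD, n = 3 each), a 1.75-fold ratio. The log2(RPKM + 1) difference of 0.78 did not pass the test (SE 0.28, limma adjusted p = 0.0836). With the pool number as a block it passed (adjusted p = 0.0233), in a fit that called 27% of all tested genes, and it also passed without adrenal medulla pool 1 (0.0463). Pkd2l1, a polycystin of sour taste cells and cerebrospinal fluid-contacting neurons, had 2 reads in carotid body and 0 in adrenal medulla.

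Trpa1, the receptor for irritants such as mustard oil, had reads in the adrenal medulla pools alone. It had 0 reads in all 3 carotid body pools, which allows up to 0.0162 RPKM, and 18, 19 and 9 reads in adrenal medulla, or 0.314, 0.312 and 0.128 RPKM. Measured against 3 reads over the carotid body libraries, this is at least 15.1-fold higher in adrenal medulla. Voom on the reads called it (adjusted p = 0.00217), but Trpa1 passed the minimum of 10 reads only through adrenal medulla and so had to differ. The level in adrenal medulla is low, on 46 reads in all.

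The ASIC genes gave the largest difference among the tested channels. Asic4 encodes a family member that forms no proton-gated current on its own. It was at 0.0780, 0.0284 and 0.0969 RPKM in carotid body and 7.61, 19.9 and 19.7 RPKM in adrenal medulla. Carotid body held 3, 1 and 4 reads and adrenal medulla 271, 751 and 857, without overlap, and adrenal medulla pool 1 was the lowest of its tissue. Asic4 averaged 0.0678 ± 0.0354 RPKM in carotid body and 15.7 ± 7.01 RPKM in adrenal medulla (SD, n = 3 each), a 232-fold ratio in favour of adrenal medulla. The log2(RPKM + 1) difference was -3.86 (SE 0.34, limma adjusted p = 1.01e-04), and voom on reads gave -7.57. In adrenal medulla its mean ranked above 67.4% of tested genes. Gm37264 overlaps its exons on the opposite strand.

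Adrenal medulla pool 1 was lowest for Asic4 and also for Th, the first enzyme of catecholamine synthesis, which stood at 551, 434 and 646 RPKM in carotid body and 887, 2489 and 2002 RPKM in adrenal medulla. Markers of the adrenal cortex were high in all adrenal medulla pools, Star among them with 27.2, 4.82 and 3.37 RPKM in carotid body and 2950, 2645 and 2153 RPKM in adrenal medulla. Whether Asic4 or Trpa1 reads came from chromaffin or cortical cells was not tested.

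Asic2, a subunit that sets the pH and gating properties of mixed ASIC channels, was also lower in carotid body. It had 1.37, 1.27 and 0.765 RPKM in carotid body and 3.05, 2.87 and 3.04 RPKM in adrenal medulla. The adrenal medulla pools were nearly level, and every one lay above all carotid body pools. The means were 1.13 ± 0.324 RPKM in carotid body and 2.99 ± 0.0994 RPKM in adrenal medulla (SD, n = 3 each), a 2.63-fold ratio in favour of adrenal medulla. The log2(RPKM + 1) difference was -0.91 (SE 0.18, limma adjusted p = 0.00741), and -1.44 on 147 reads in carotid body and 399 in adrenal medulla. Its deposited row joins 2 RefSeq transcripts with separate starts, and both start regions are shown because the row cannot tell which was used.
Asic2 (chr11:81152904-81153153, minus strand): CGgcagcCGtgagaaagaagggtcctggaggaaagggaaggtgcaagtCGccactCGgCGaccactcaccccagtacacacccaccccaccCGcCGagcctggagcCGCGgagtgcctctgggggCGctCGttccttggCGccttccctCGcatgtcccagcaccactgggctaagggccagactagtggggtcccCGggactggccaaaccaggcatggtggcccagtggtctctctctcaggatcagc
Asic2 (chr11:81968397-81968646, minus strand): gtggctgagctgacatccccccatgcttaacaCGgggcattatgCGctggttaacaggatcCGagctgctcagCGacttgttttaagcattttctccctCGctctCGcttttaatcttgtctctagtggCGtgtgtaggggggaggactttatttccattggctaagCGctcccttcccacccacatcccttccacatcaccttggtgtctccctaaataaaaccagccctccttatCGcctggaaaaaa
Both are the 250 bases before a start in GRCm38.p6, 5′ to 3′, with CG in capitals. The windows held 66.4% GC with 14 CG and 51.2% GC with 9 CG, more CG than 70.6% and 59.7% of promoters. ACGTG, the A form of the hypoxia response element core RCGTG, TGACGTCA, the cyclic AMP response element, and TATAAA were searched on both strands. None of these occurred in the 5 windows printed for these 4 genes, and 16.57%, 1.546% and 12.37% of all promoters hold them. At such shares, 5 windows are too few for their absence to set these genes apart. The G form of that core, GCGTG, was not part of the search, and the Trpc5 window and the Asic2 window with 9 CG hold it.

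The proton sensors proper were low. Asic1, the main proton-gated subunit of neurons, had 0.508, 0.456 and 0.558 RPKM in carotid body and 0.588, 1.03 and 1.95 RPKM in adrenal medulla, with all carotid body pools below all adrenal medulla pools. Its log2 difference on reads of -1.07 did not pass the test (SE 0.48, voom, adjusted p = 0.163), but did so without adrenal medulla pool 1 (0.0469). Asic3, a subunit of sensory neurons described in rat glomus cells, had 5 reads in carotid body and 16 in adrenal medulla, with overlap. Its log2 difference on reads of -1.58 did not pass (adjusted p = 0.285). Summed over the 4 genes the ASIC family reached 1.48–1.95 RPKM in carotid body and 11.6–24.7 RPKM in adrenal medulla, mostly through Asic4.

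**Figure D3:**
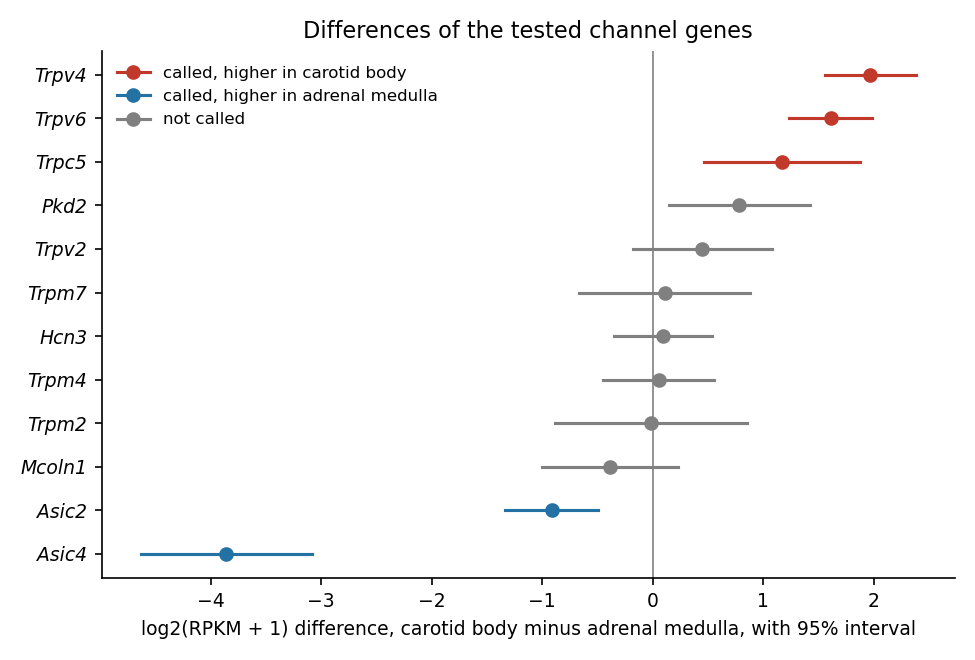
Difference in log2(RPKM + 1), carotid body minus adrenal medulla, for the 12 tested channel genes, with 95% intervals from limma. Trpv4, Trpv6 and Trpc5 lie right of 0 and Asic4 and Asic2 left of it; Pkd2 is right of 0 with an adjusted p of 0.0836, and the intervals of the other 6 include 0.

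None of the 3 HCN genes was called, by limma for Hcn3 or by voom for Hcn2 and Hcn4, and in these fits without a pool block none reached an unadjusted p under 0.05. Hcn3, a slowly activating family member, had 1.33, 1.27 and 1.32 RPKM in carotid body and 0.729, 1.14 and 1.71 RPKM in adrenal medulla. The carotid body pools were nearly level and lay within the adrenal medulla range, and the log2(RPKM + 1) difference was 0.10 (95% interval -0.35 to 0.54, limma adjusted p = 0.802). Pklr overlaps Hcn3 exons on the opposite strand.

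For Hcn2 and Hcn4 the pools of 1 tissue lay further apart than the tissue means. Hcn2, the main cyclic AMP-responsive HCN channel of neurons, had 0.108, 0.425 and 1.67 RPKM in carotid body and 0.0932, 0.855 and 1.24 RPKM in adrenal medulla. Pool 3 was the highest and pool 1 the lowest in both tissues, a 15.5-fold range in carotid body and 13.3-fold in adrenal medulla. Hcn4, the pacemaker channel of the sinoatrial node, had 0.671, 0.0397 and 0.0507 RPKM in carotid body and 0.196, 0.0184 and 0.0320 RPKM in adrenal medulla. Here pool 1 was the highest and pool 2 the lowest in both tissues, on 37, 2 and 3 reads in carotid body and 10, 1 and 2 reads in adrenal medulla. The tissues overlapped for both, with log2 differences on reads of -0.16 for Hcn2 (voom, adjusted p = 0.949) and 1.08 for Hcn4 (adjusted p = 0.595). Between pools of the same number, Hcn4 was higher in carotid body in 3 of 3, and with the pool number as a block its log2 difference on reads was 1.31 (voom, adjusted p = 0.125).

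**Figure D4:**
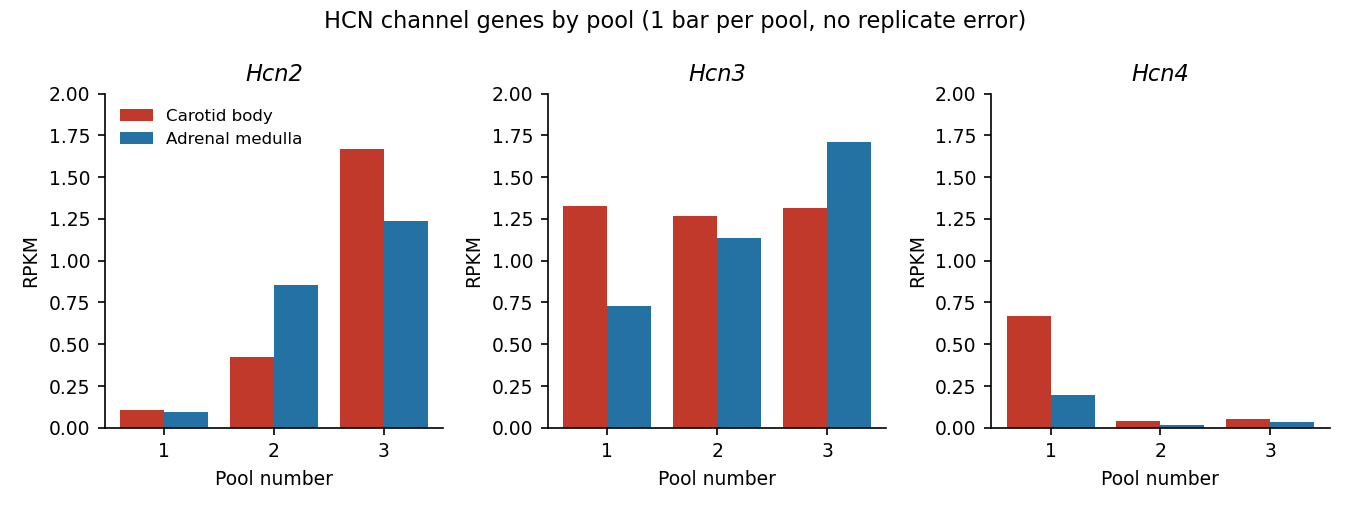
Level of Hcn2, Hcn3 and Hcn4 in RPKM by pool number, 1 bar per pool, carotid body left of adrenal medulla. Hcn2 is highest in pool 3 and Hcn4 in pool 1 in both tissues, while Hcn3 shows no such shared order.

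Swings of this size were counted over the table. Of 15948 entries with at least 10 reads and a read in every library, 7 (0.0439%) ranged over 10-fold within both tissues with the same pool highest. These are Hcn2, Hcn4, Alpk3, Hist2h3b, Nrg2, Malat1 and Rn4.5s, named after their values were seen. The rule repeats the pattern of Hcn2 and Hcn4, so their place among the 7 carries no weight. Its limit lies just under the 10.6-fold range of Hcn4 in adrenal medulla, which rests on 10 reads against 1. Many of the 15948 entries have more reads than Hcn4, so the share does not measure how unusual its range is. Malat1, a nuclear long RNA, had 168, 15.2 and 32.9 RPKM in carotid body and 70.5, 46.6 and 6.45 RPKM in adrenal medulla. Rn4.5s, a small RNA, had 109, 30.6 and 323 RPKM in carotid body and 82.1, 127 and 908 RPKM in adrenal medulla. The cause of the swings was not tested. Of the 12 tested channel genes, 5 had the same highest pool in both tissues, beside 44.9% of tested entries, and 3, Trpc5, Mcoln1 and Pkd2, shared both the highest and the lowest pool, beside 26.1%. With the genes under the filter included, 11 of 22 with reads in both tissues shared the highest pool, and 5, Hcn2 and Hcn4 added, shared both.

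The 10 genes absent from both tissues were Trpm1, Trpm5, Trpm6, Trpm8, Trpv1, Trpv3, Trpv5, Mcoln2, Mcoln3 and Pkd2l1. None passed 0.0634 RPKM in any library, and together they gave 32 reads over all 6 libraries. Trpm8, the cold and menthol receptor, and Mcoln3, an endosomal channel of hair cells, had 0 reads everywhere. For Trpm8 that allows up to 0.0179 RPKM in carotid body and 0.0176 RPKM in adrenal medulla, and for Mcoln3 up to 0.0404 and 0.0397 RPKM. Trpm6, the magnesium channel of kidney and gut, had 10 reads in carotid body and 1 in adrenal medulla, a log2 difference of 2.21 that did not pass the test (voom, adjusted p = 0.125). Trpm5, the channel of taste cells, had 3 reads in each tissue, and Trpm1, a channel of retinal bipolar cells and melanocytes, had 5 in carotid body and 0 in adrenal medulla.

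Of 46 related genes listed for comparison, 45 had a length in the table and 30 were tested. By limma 6 of the 30 were higher in carotid body, beside 14.2% of all tested genes, and 0 lower, beside 7.73%. Scnn1b and Piezo1 reached 1 RPKM in carotid body alone and so had to differ. By voom on reads these counts were 7 and 1, beside 1864 and 1002 of all 13357 tested entries. At an unadjusted limma p under 0.05 they were 10 and 1. The share of all tested entries at that limit was not computed, so those 2 counts cannot be weighed. The median log2(RPKM + 1) difference of the 30 was 0.28. Scnn1b, the beta subunit of the epithelial sodium channel, a family to which the ASICs belong, had 25.6, 22.0 and 22.7 RPKM in carotid body and 0.314, 0.640 and 0.321 RPKM in adrenal medulla. Its log2(RPKM + 1) difference was 4.11 (limma adjusted p = 1.10e-05), while the alpha subunit Scnn1a averaged 0.276 RPKM in carotid body and 0.270 RPKM in adrenal medulla. Cnga3, a cyclic nucleotide-gated channel of cone photoreceptors, averaged 8.23 ± 2.20 RPKM in carotid body and 2.37 ± 0.197 RPKM in adrenal medulla, a difference of 1.42 (adjusted p = 0.00278). Piezo1, the stretch-gated channel of vessels, averaged 1.98 ± 0.408 RPKM in carotid body and 0.600 ± 0.239 RPKM in adrenal medulla, a difference of 0.90 (adjusted p = 0.00832).

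Among partners of the channels, 2 of 8 tested genes were higher in carotid body, beside 14.2% of all tested genes, and 6 were not called. Tmem100, a membrane protein that couples TRPA1 to TRPV1 in mouse sensory neurons, averaged 16.7 ± 2.12 RPKM in carotid body and 3.88 ± 0.824 RPKM in adrenal medulla (log2(RPKM + 1) difference 1.86, limma adjusted p = 5.39e-04). Pex5l, which encodes the HCN regulator TRIP8b, averaged 2.27 ± 0.291 RPKM in carotid body and 0.732 ± 0.407 RPKM in adrenal medulla, a difference of 0.94 (adjusted p = 0.0134). Of 4 tested endolysosomal and polycystin genes, Tpcn1, a calcium channel of endolysosomes, was higher in carotid body at 3.81 ± 1.20 RPKM, against 1.40 ± 0.299 RPKM in adrenal medulla (difference 0.98, adjusted p = 0.0154). Pkd1, the partner of Pkd2, averaged 2.00 ± 0.510 RPKM in carotid body and 0.981 ± 0.106 RPKM in adrenal medulla, with a log2(RPKM + 1) difference of 0.58 that did not pass in limma (adjusted p = 0.0522) and one of 1.00 on reads that did (voom, adjusted p = 0.0317). None of the 10 tested Gq, phospholipase C and store-operated genes, the signalling upstream of TRPC channels, was called by limma, beside 21.9% of all tested genes. Voom called 0 higher in carotid body and 1 lower, Plcb1, beside 1864 and 1002 of all 13357 tested entries. At an unadjusted limma p under 0.05 there were 3 higher and 1 lower, a limit at which the share of all tested entries was not computed. Plcb1, a phospholipase C activated by Gq, had a log2(RPKM + 1) difference of -1.16 (limma adjusted p = 0.0527) and one of -1.34 on reads (voom, adjusted p = 0.0469). Orai1, the pore of the store-operated calcium channel, had a log2(RPKM + 1) difference of 1.00 (limma adjusted p = 0.0616).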

How the data were processed

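RNA-seq of 3 carotid body and 3 adrenal medulla pools was used. Per the labels' protocols, RNA amplification used the Amino Allyl MessageAmp II system, which starts at the poly(A) tail; strand is not given in the sources used here. The submitters' processing notes name Bowtie 0.9.8 and mm9. The deposited values are RPKM made by the authors; 3217 of 26728 entries have no length, hold raw counts (5.85% to 8.27% of reads) and were left out. RPKM times length gave whole reads, within 0.01, for 106276 of 106276 values above 0.

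Differences in log2(RPKM + 1) were tested with limma (version 3.58.1, R version 4.3.3; variance trend, two-sided) over 13357 entries of at least 1 RPKM in 3 libraries. Adjusted p-values are Benjamini-Hochberg over all entries tested, and p-values measure only the spread between these pools. For genes under that filter, limma's voom was run on the recovered reads of entries with at least 10 reads, an addition made after seeing the data. The test was checked on simulated data. Python 3.11.15, pandas 2.3.3, numpy 2.4.6 and matplotlib 3.10.9 were used. Alternatives changed the pseudocount, filter, scaling, pool block and libraries. Pools with the same number deviated together from their tissue means (correlations 0.26, 0.13 and 0.47 for pools 1, 2 and 3), so the pool number was tried as a block. The main fits used tissue alone and did not pair the pools. Pools of different number gave -0.62 to 0.29, the highest for carotid body pool 2 with adrenal medulla pool 1, so the pairing is a hint from these deviations and the labels do not say whether the mice were the same.

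The members and lists were chosen with earlier results of these data known. Named in full were called genes and tested genes with a mean of at least 5 RPKM in either tissue; related genes were named where called, and Scnn1a, Pkd1, Plcb1 and Orai1 after their values were seen. Promoters came from RefSeq GRCm38.p6, which matched 28 of the 33 members, 4 of the 5 called. Exon overlaps came from a GRCm38 annotation, for names only.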

Additional observations from a re-analysis of the deposited data

How the results depend on the processing

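Asic2 kept its call and direction in all 15 alternatives that tested it, and Trpc5 kept its call in 10 of 16. Trpv4, Trpv6 and Asic4 also kept theirs in 15 of 15, which is no sign of stability, since these genes passed the filter through 1 tissue only. With 1 RPKM required in all 6 libraries, 7 members were tested and 1 was called, Trpc5, higher in carotid body, with 0 lower, and 1639 entries were called over the whole table; this filter removes genes that are low in either tissue. With carotid body pool 2 and adrenal medulla pool 3 left out, 48.3% of the calls over the whole table were higher in carotid body, against 64.7% with all libraries; the cause was not tested. By direction, the share was 60.1% with median-ratio scaling and 55.0% with quantile scaling. The pool block called 3613 entries and 6 members, Pkd2 added.

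Of the differences that did not pass the test, those of Trpm2, Trpm4, Trpm7, Hcn3, Trpc2, Hcn2 and Hcn4 changed sign in log2 under some alternative. Under quantile scaling Trpm4 gave -0.11, Trpm7 -0.0082 and Hcn3 -0.12, and with both pools left out Trpm7 gave -0.38; the cause was not tested. Leaving out 1 library moved Trpm2 between -0.38 and 0.44, Trpm4 between -0.12 and 0.16, Trpm7 between -0.25 and 0.42 and Hcn3 between -0.063 and 0.26. On reads it moved Trpc2 between -0.33 and 0.11, Hcn2 between -1.21 and 0.80 and Hcn4 between -0.14 and 1.92. Depth limits the genes under the filter, where few reads stand behind each value.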
